A study of Danio rerio with 16 samples.

Results

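Insulin-like growth factor (IGF) signalling is the main hormonal and local route by which vertebrate skeletal muscle is driven to grow. The ligands are secreted peptides that activate receptor tyrosine kinases on muscle cells, and the receptors act through the PI3K, Akt and mTOR pathway on protein synthesis and breakdown. Secreted IGF binding proteins hold the ligands in blood and tissue, prolong their life and either restrain or present them to the receptors. Zebrafish carry duplicated copies of several of these genes, marked a and b.

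The measurements described here are those of 9 IGF system genes on the array: the ligands igf1, igf2a and igf2b, the receptors igf1ra and igf1rb, and the binding proteins igfbp1a, igfbp2a, igfbp3 and igfbp7. A probe was taken as a member if it was no control spot and its RefSeq accession mapped to one of these symbols. The genes had 12 probes of the 43803 non-control probes on the array, and they were 9 of the 5952 genes that a RefSeq accession named. A second probe was present for igf1, igf2b and igfbp2a, and for each of these the probe with the highest mean signal, called the brightest, stands for the gene.

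Fast muscle, the dorsal white fillet, was taken from 8 exercised and 8 non-exercised adult wild-type zebrafish and hybridised to 16 one-colour Agilent arrays, 1 fish per array. Exercised fish were trained at a speed of 0.4 m/s in sessions of 6 hours, on 5 days of each week over 4 weeks, which made 20 experimental days, and non-exercised fish were kept at a swimming speed of 0.1 m/s. Both groups were pet shop fish of no stated line, and each group had its own swim tunnel, so that training and tunnel cannot be told apart. All fish came from the first of the study's swimming experiments.

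Exercised fish 1 to 4 and 5 to 8 were on slides 3 and 4, and non-exercised fish 1 to 4 and 5 to 8 on slides 1 and 2. Because each group was scanned on its own day, an effect of the scan and one of training cannot be told apart. The share of probes well above background, a flag of the scanner software, was 21.1% to 54.0% (median 40.1%) in exercised fish and 33.7% to 48.5% (median 41.7%) in non-exercised fish. Slide 4 stood apart, with a mean of 30.1% of probes well above background against 48.3% on slide 3, 42.8% on slide 2 and 41.2% on slide 1. Of 13 fast muscle markers with a probe, 11 were well above background on every array that measured them. Only 2 of the 13 had a value on every array, because outlier spots were left out. In exercised fish 10 of the 13 were higher and 3 lower, with a median log2 difference of 0.47. At an unadjusted p under 0.05 in limma's test, described below, 3 were higher and 1 lower. Of all RefSeq-named genes 10.5% were higher and 12.5% lower at that threshold. None was called higher, and tnnt3a, a fast troponin T, was the marker called lower. It was well above background in 0 exercised and 7 non-exercised fish. Its duplicate tnnt3b differed by 0.09 and was not called.

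Levels are log2 processed signals from which the 75th percentile of the same array was subtracted, so that 0 is the level of that percentile and each unit is a doubling. Levels of different probes cannot be set against each other, and differences are exercised minus non-exercised. In limma's test over all non-control probes, with a threshold of 0.05 on the Benjamini-Hochberg adjusted p, 4.58% of probes passed as higher in exercised fish and 1.79% as lower. Of the 12 IGF system probes, 2 were called higher, those of igfbp7 and igf1ra, and 0 were called lower. At an unadjusted p under 0.05, limma gave 4 of the 12 as higher and 0 as lower, and of all probes 12.2% as higher and 7.41% as lower. The groups overlapped for all 12 probes. Of all probes, 1.12% had every exercised fish above every non-exercised fish and 0.224% the reverse, and none among 12 probes is close to these shares. The median difference of all non-control probes was 0.26 with this scaling, and with a shift to the median of each array it was 0.01. Restricted to probes that passed the background flag in all 16 fish, the median with this scaling was 0.0015. Where 8 or more fish had to pass, it was -0.09. The median thus changed with the set of probes counted. This scaling holds the 75th percentile of every array at 0, so these medians cannot show how the 0.26 arose. Over all non-control probes the median was 0.61 without slide 3 and -0.30 without slide 4. The part of the 0.26 in any single difference was not tested.

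**Figure D1:**
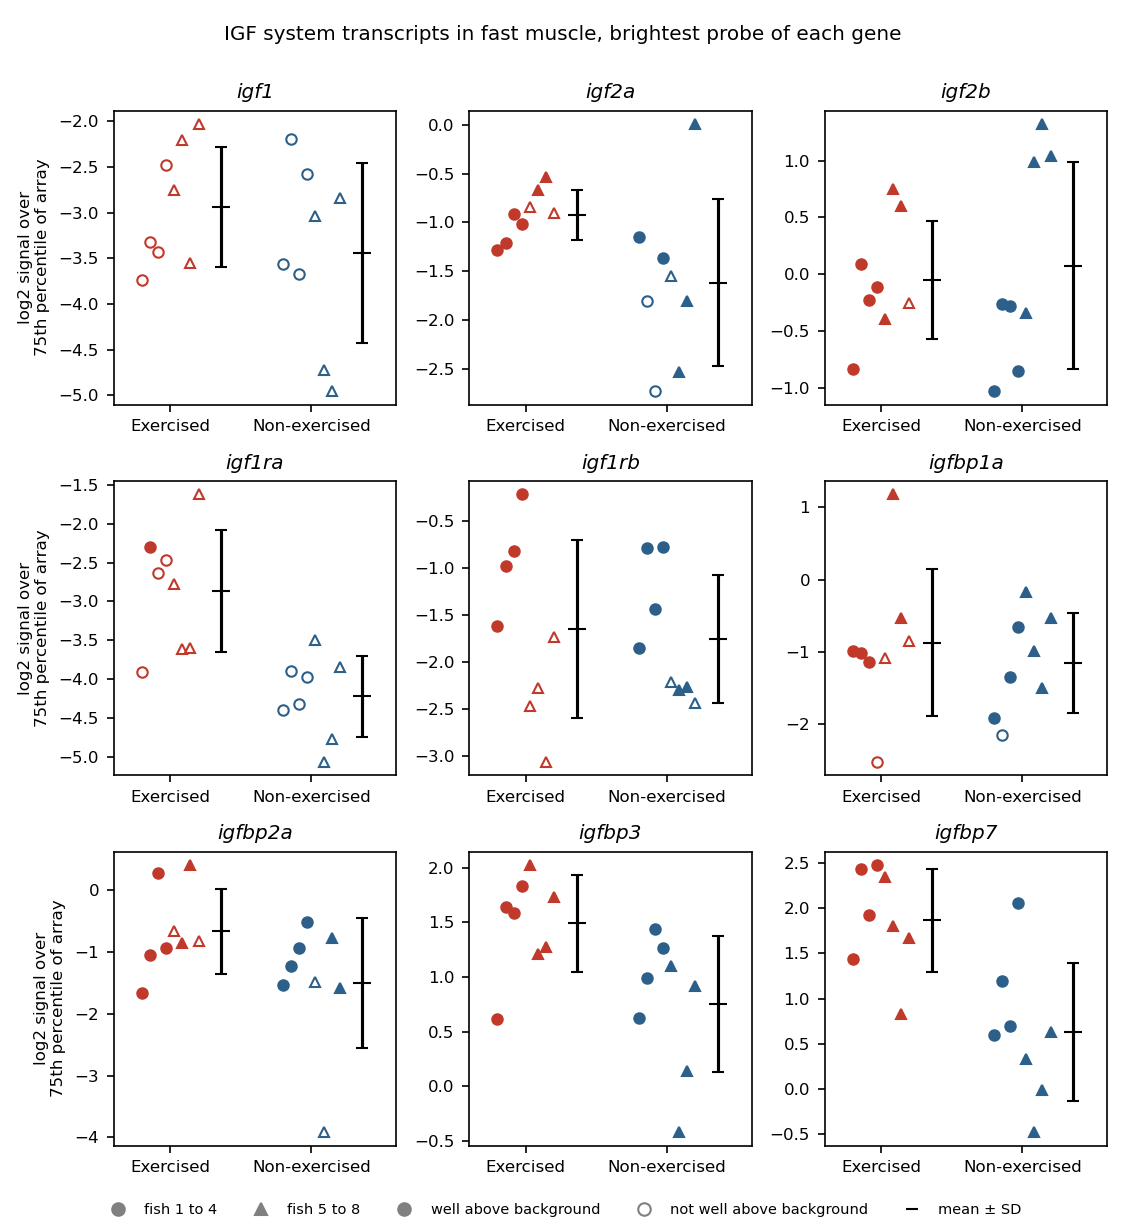
Level of the brightest probe of each of the 9 genes in every fish (log2 signal over the 75th percentile of the array), exercised fish on the left and non-exercised fish on the right, with the mean ± SD of 8 fish beside them. Filled symbols are arrays on which the probe was well above background. No gene separates the groups fully, and igfbp7 and igf1ra differ most.

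Detection ran from no array to every array across the genes. The probes of igfbp3 and igfbp7 were well above background on all 16 arrays, as were 15.4% of all probes. Neither probe of igf1 nor the second probe of igfbp2a was well above background on any array, as was the case for 32.3% of all probes. The brightest probe of igf2b was well above background in 7 exercised and 8 non-exercised fish, its second probe in 6 and 8, and the igf2a probe in 6 exercised and 5 non-exercised fish. The igf1ra probe was detected in 1 exercised fish and 0 non-exercised fish, and the igf1rb probe in 4 and 6. The probe of igfbp1a was detected in 5 exercised and 7 non-exercised fish and the brightest probe of igfbp2a in 6 of each group. In Fisher's exact test of detection against group, adjusted over all non-control probes, every IGF system probe had an adjusted p of 1. Of all 43803 probes, 0 passed after adjustment and 518 had an unadjusted p under 0.05, none of them of the IGF system.

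**Figure D2:**
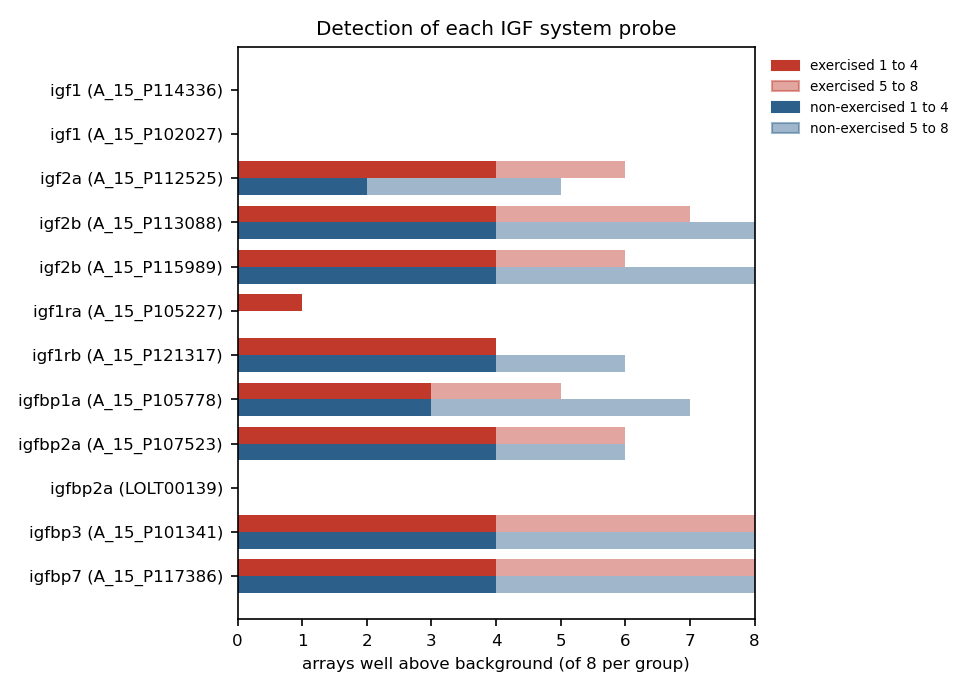
Number of arrays on which each of the 12 probes was well above background, with exercised fish in the upper bar and non-exercised fish in the lower bar of each pair, split by slide. Both probes of igf1 and the second probe of igfbp2a have no bar, and igf1rb has 4 exercised fish, all of slide 3.

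The ligand igf1, made by liver under growth hormone and also within muscle, was below the detection flag in every fish. Its brightest probe lay at -3.74 to -2.03 in exercised fish (median -3.04) and at -4.95 to -2.20 in non-exercised fish (median -3.30). The groups overlapped, and exercised fish 8, whose array had the smallest share of probes above background, was the highest of all. The adjusted p was 0.561 for this probe and 0.662 for the second one. No fold is given because neither probe was well above background in any fish. On slides 1, 2, 3 and 4 the negative control spots averaged -3.80, -4.22, -4.60 and -2.72. The brightest probe averaged -3.00, -3.89, -3.24 and -2.64 on these slides, highest over the controls on slide 3. The second probe averaged -2.91 on slide 4 and -4.76 on slide 3.

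igf2a, one of the duplicated genes for the IGF2 peptide, lay in a narrow band in exercised fish. Its level was -1.29 to -0.54 in exercised fish (median -0.91) and -2.73 to 0.01 in non-exercised fish (median -1.67). All 8 exercised fish were above the mean of the non-exercised fish, and 6 non-exercised fish were below every exercised fish, but non-exercised fish 8 was above all of them. The mean was -0.92 ± 0.25 in exercised fish and -1.61 ± 0.85 in non-exercised fish (SD, n = 8 each). The difference of 0.69 (95% interval 0.01 to 1.37) did not pass the threshold, with an adjusted p of 0.245. Without non-exercised fish 8 it was 0.92, with an adjusted p of 0.0452, and no other of the 16 fits that left out 1 fish passed. It was 0.37 with no background correction, 0.38 with normexp correction and 0.44 with a median shift (adjusted p = 0.421, 0.544 and 0.533). With slide as a random block the adjusted p was 0.887. The probe was not well above background in exercised fish 5 and 8 and in non-exercised fish 2, 3 and 5.

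igf2b, the other IGF2 gene, was not called on either probe. Its brightest probe lay at -0.84 to 0.75 in exercised fish (median -0.17) and at -1.03 to 1.32 in non-exercised fish (median -0.27). The groups overlapped, and the highest and the lowest fish were both non-exercised. The difference of -0.12 (95% interval -0.89 to 0.65) had an adjusted p of 0.854, and that of the second probe was -0.01, with an adjusted p of 0.988.

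The fish that stood high in igf2b were all on slides 2 and 4, the second slide of each group. Non-exercised fish averaged -0.60 on slide 1 and 0.75 on slide 2, and exercised fish -0.27 on slide 3 and 0.17 on slide 4. Without slide 1 the group difference was -0.80 (adjusted p = 0.324), and without slide 2 it was 0.56 (adjusted p = 0.504). The part of the slide in this was not tested. Exercised fish 6 and 7 were at 0.75 and 0.60, and non-exercised fish 6, 7 and 8 at 0.99, 1.32 and 1.04, whereas every other fish was at 0.09 or below. Fish 5 of both groups, on the same slides as these, were low, at -0.40 in the exercised and -0.34 in the non-exercised group. The second probe placed these fish in the same way, with 0.76 and 0.62 in exercised fish 6 and 7 and 0.92, 1.34 and 0.82 in non-exercised fish 6, 7 and 8. The difference between the igf2b probes was within 0.1 of its median in 11 of 16 fish. It was widest in exercised fish 8, where the brightest probe was at -0.26 and the second at 0.71, and neither was well above background.

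**Figure D3:**
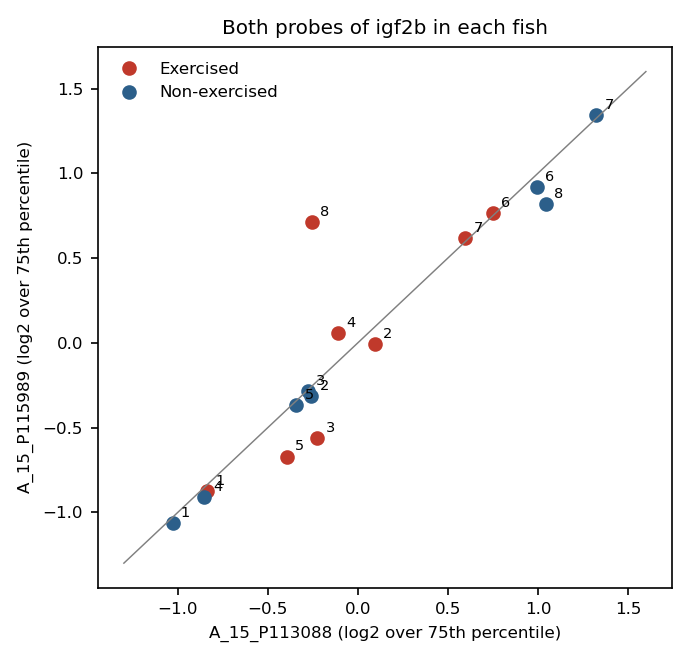
Levels of both igf2b probes in each fish (log2 signal over the 75th percentile of the array), with the fish number beside each point and a line of equal values. Exercised fish 6 and 7 and non-exercised fish 6, 7 and 8 are high on both probes, and exercised fish 8 is the point far from the line.

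The difference between igf2a and igf2b within each fish was compared between groups, to test whether the duplicates differed in their change. The change of igf2a exceeded that of igf2b by 0.82. In a two-sided exact permutation test over the 12870 divisions of the 16 fish the p was 0.103, and it was also 0.103 after adjustment over the 2 pairs of duplicates tested. Between the non-exercised slides the same quantity was 1.07 lower on slide 2 than on slide 1. Of the 16 fits that left out 1 fish, 1 passed the threshold in the same exact test. It was that without non-exercised fish 1, with a group difference of 1.04 and an adjusted p of 0.0258. Across the 16 fits the difference was as low as 0.55 and the adjusted p as high as 0.202.

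igf1ra, one of the duplicated genes for the IGF1 receptor, was called higher in exercised fish, but on a probe that was well above background on 1 array of 16. Its level was -3.90 to -1.62 in exercised fish (median -2.71) and -5.06 to -3.49 in non-exercised fish (median -4.15). Of the exercised fish, 5 were above every non-exercised fish, and 5 non-exercised fish were below every exercised fish. The means were -2.87 ± 0.78 in exercised fish and -4.22 ± 0.52 in non-exercised fish (SD, n = 8 each), with an adjusted p of 0.0213. No fold is given, because the mean of the exercised fish lay below the lowest signal that counted as well above background on the non-exercised arrays.

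The igf1ra signal lay close to that of the negative control spots on 3 of the 4 slides. On slide 3 the exercised fish averaged -2.83 for igf1ra and -4.60 for the control spots, and on slide 4 they averaged -2.90 and -2.72. On slides 1 and 2 the non-exercised fish averaged -4.14 and -4.29 for igf1ra and -3.80 and -4.22 for the control spots. The call was lost when the spot signal was used with no background correction (adjusted p = 0.620), with normexp correction (0.643), with quantile normalization (0.0836) and with slide as a random block (0.512). Among the 16 fits that left out 1 fish, it was lost without exercised fish 2, the fish in which the probe was detected (adjusted p = 0.0513).

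igf1rb, the other IGF1 receptor gene, was detected in more fish and was not called. Its level was -3.06 to -0.22 in exercised fish (median -1.68) and -2.43 to -0.78 in non-exercised fish (median -2.03). The ranges overlapped, with the highest and the lowest fish both in the exercised group. The difference of 0.11 (95% interval -0.72 to 0.94) had an adjusted p of 0.882.

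Within each group, igf1rb was lower in fish 5 to 8 than in fish 1 to 4. Exercised fish averaged -2.38 on slide 4 and -0.91 on slide 3, and non-exercised fish averaged -2.30 on slide 2 and -1.21 on slide 1. In both groups every fish of the second slide was below every fish of the first. On slide 4 the probe was not well above background in any fish, and the negative control spots there averaged -2.72. Slide 4 also had fewer probes above background than slide 3, whereas slides 2 and 1 were alike in this, and the part of the slide in the result was not tested.

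The change of igf1ra exceeded that of igf1rb by 1.24, with an adjusted p of 0.0205 in the exact permutation test. This difference rests on the dim igf1ra probe and was uneven between slides. On slide 4 the probes of both genes were not well above background in any fish. The level of igf1ra minus that of igf1rb was higher in the exercised fish of slide 3 than in the non-exercised fish of slides 1 and 2 by 1.015 and 0.08. In the exercised fish of slide 4 it was higher than on slides 1 and 2 by 2.41 and 1.47. The permutation did not take slides into account. The difference was 0.30 with no background correction and 0.60 with normexp correction, with adjusted p-values of 0.250 and 0.269 in the exact test.

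igfbp1a encodes a binding protein that in zebrafish is raised by hypoxia and food deprivation and restrains IGF action. Its level was -2.52 to 1.18 in exercised fish (median -1.003) and -2.14 to -0.17 in non-exercised fish (median -1.16). The range of the non-exercised fish lay within that of the exercised fish, with exercised fish 4 lowest and exercised fish 6 highest of all. The difference of 0.28 (95% interval -0.58 to 1.15) had an adjusted p of 0.710.

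igfbp2a, whose product binds IGF1 and IGF2 and is an inhibitor of growth when overproduced in zebrafish, did not pass the threshold. Its brightest probe lay at -1.66 to 0.41 in exercised fish (median -0.84) and at -3.91 to -0.52 in non-exercised fish (median -1.36). Exercised fish 3 and 7 were above every non-exercised fish, and non-exercised fish 6 was far below every other fish. The difference of 0.83 (95% interval -0.05 to 1.72) had an adjusted p of 0.293, and without non-exercised fish 6 it was 0.49, with an adjusted p of 0.475. The second igfbp2a probe was not well above background on any array and had an adjusted p of 0.649.

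igfbp3 encodes the binding protein that in mammals carries most IGF in blood. Its level was 0.61 to 2.03 in exercised fish (median 1.61) and -0.42 to 1.44 in non-exercised fish (median 0.95), and it was well above background in every fish. Of the exercised fish, 5 were above every non-exercised fish, while exercised fish 1 was below 6 of the non-exercised fish.

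The mean of igfbp3 was 1.49 ± 0.45 in exercised fish and 0.76 ± 0.62 in non-exercised fish (SD, n = 8 each). This 1.66-fold difference (log2 0.73, 95% interval 0.12 to 1.35) did not pass the threshold, with an adjusted p of 0.158. It passed with cyclic loess normalization, at a log2 difference of 0.87 and an adjusted p of 0.0184. The exercised fish of slides 3 and 4 were 0.66 and 0.81 above the mean of all non-exercised fish, and the non-exercised fish of slide 2 were 0.65 below those of slide 1. Without slide 2 the igfbp3 difference was 0.41 (adjusted p = 0.662), and without slide 1 it was 1.06 (adjusted p = 0.157). With slide as a random block the adjusted p was 0.832. igfbp3 and igfbp1a are neighbours in the RefSeq gene table of zebrafish.

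igfbp7 was the member with a called difference on a probe detected in every fish. Its product binds IGFs weakly and also binds insulin, and in mammals it is secreted by blood vessel and connective tissue cells into the extracellular matrix. The level was 0.82 to 2.48 in exercised fish (median 1.87) and -0.48 to 2.06 in non-exercised fish (median 0.61). All 8 exercised fish were above the mean of the non-exercised fish, and 6 non-exercised fish were below every exercised fish. The groups overlapped through non-exercised fish 4, at 2.06, which only exercised fish 2, 4 and 5 exceeded, and non-exercised fish 2, at 1.19.

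Mean igfbp7 was 1.87 ± 0.57 in exercised fish and 0.62 ± 0.77 in non-exercised fish (SD, n = 8 each). The difference was 1.24 ± 0.34 (SE), or 2.37-fold, with an adjusted p of 0.0358 and a 95% interval of 0.53 to 1.96. Against the median of all probes it was 0.99. Against the median of the probes well above background on all 16 arrays, as igfbp7 was, it stayed at 1.24, because that median was 0.0015. All 5 other scalings gave a higher mean in exercised fish, by 0.99 to 1.38, and 4 of them called it. With a median shift the adjusted p was 0.0899.

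The igfbp7 call lay close to the threshold and depended on single fish. It was kept in 7 of the 16 fits that left out 1 fish. It was lost without exercised fish 2, 3, 4 or 5 or without non-exercised fish 1, 3, 5, 6 or 7, with adjusted p-values of 0.0591 to 0.0774 and differences of 1.08 to 1.25. The non-exercised slides differed from each other nearly as much as the groups did. Exercised fish averaged 2.07 on slide 3 and 1.66 on slide 4, and non-exercised fish averaged 0.11 on slide 2 and 1.14 on slide 1. With slide as a random block the adjusted p was 0.511, and without slide 2 the difference was 0.73, with an adjusted p of 0.394.

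**Figure D4:**
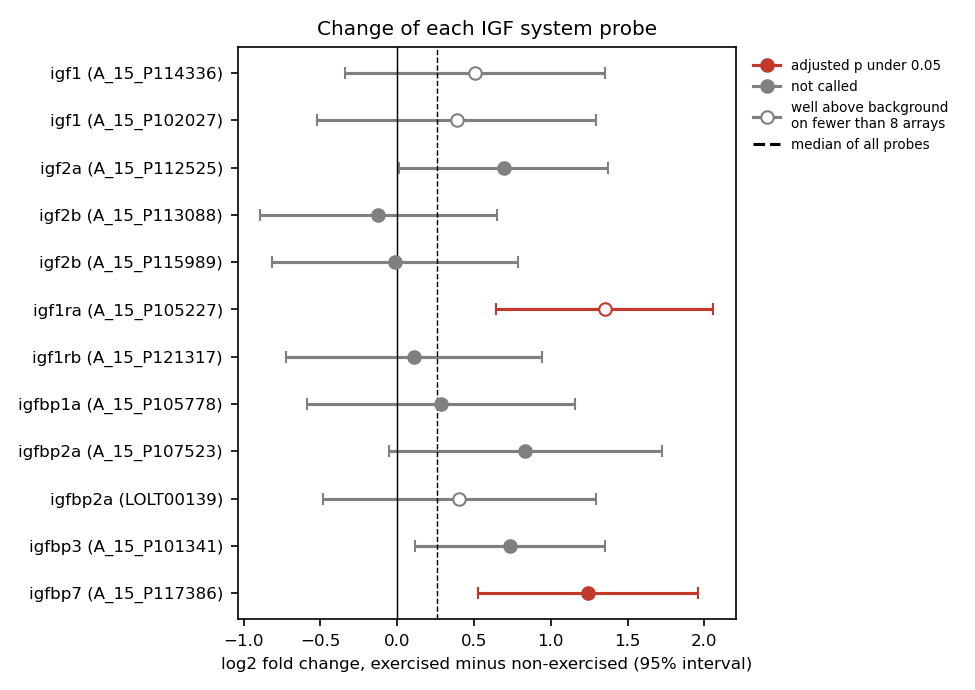
Difference of each of the 12 probes between exercised and non-exercised fish (log2, points) with its 95% interval (bars), in red where the adjusted p was under 0.05. Hollow points are probes that were well above background on fewer than 8 arrays, and the dashed line is the median of all probes, 0.26.

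Markers of other cell types that fast muscle fillets can hold were set beside these results, and their part in the igfbp7 and igfbp3 results was not tested. Called markers were found on the connective tissue list alone. Fewer cells of a type and less RNA per cell cannot be told apart in whole tissue. Of 7 connective tissue markers with a probe, 6 were higher and 1 lower in exercised fish. The type I collagen genes col1a1a and col1a2 were called higher, col1a1a by 1.43 ± 0.42 and col1a2 by 1.78 ± 0.47 (log2, SE), with adjusted p-values of 0.04996 and 0.0298. The summed signal of the 6 connective tissue markers with a value on every array, in multiples of the 75th percentile, was 39.8 to 174 in exercised fish (median 141) and 26.7 to 191 in non-exercised fish (median 46.2).

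Blood markers were higher in exercised fish for 7 of 7 genes, with a median difference of 1.32. With limma 0 of them were called, and 5 had an unadjusted p under 0.05 (10.5% of all RefSeq-named genes were higher at that threshold). Their summed signal, over the 4 genes with a value on every array, was 5.99 to 45.8 in exercised fish (median 10.8) and 1.25 to 9.46 in non-exercised fish (median 4.84). The 4 summed genes were hbaa1, epb41b, gata1a and hbae3, so that hbba1, hbba2 and slc4a1a are not in the sum. Of these 4, hbae3 was not well above background on any array, and gata1a was in 2 exercised and 0 non-exercised fish. Of 3 endothelial markers with a probe, 2 were higher, 1 was lower and 0 were called. Their summed signal was 4.604 to 15.4 in exercised fish (median 9.88) and 3.90 to 17.5 in non-exercised fish (median 9.92), and the defining marker cdh5 was not well above background on any array. Of 7 liver markers, all were higher and 0 were called. Their summed signal was 0.491 to 5.62 in exercised fish (median 1.199) and 0.567 to 2.25 in non-exercised fish (median 0.879). These markers were dim: 0 of them were detected on every array, and neither ttr nor serpina1l was detected on any array. fgb and fgg were each detected in 1 exercised and 0 non-exercised fish, and vtg2 in 0 and 2. At an unadjusted p under 0.05, limma gave 0 endothelial and 0 liver markers.

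Immune cell markers had a lower median summed signal in exercised fish, though 0 of the 7 with a probe were called and their median difference was -0.07. Over the 6 genes with a value on every array it was 5.31 to 44.03 in exercised fish (median 17.0) and 8.05 to 130.2 in non-exercised fish (median 46.8). By gene, 3 were higher and 4 lower. lcp1, coro1a and spi1b, picked after their values were seen, were at -1.22, -1.28 and -1.14 (adjusted p = 0.256, 0.220 and 0.355). The other lower gene, mpx, was at -0.07, and the higher genes csf1ra, il1b and lyz were at 0.71, 0.66 and 0.02. il1b was not detected on any array, and csf1ra and mpx were each detected in 0 exercised fish and 1 non-exercised fish. Slow muscle markers were higher for 2 and lower for 3 of 5 genes, skin markers for 5 and 2 of 7, and muscle precursor markers for 3 and 4 of 7, with 0 called on each list. At an unadjusted p under 0.05, limma gave 1 lower immune marker, 1 higher and 1 lower skin marker, and 0 slow muscle and 0 precursor markers.

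By their brightest probes, 8 of the 9 IGF system genes were higher and 1 was lower in exercised fish, with a median difference of 0.69. The 8 include igf1, which was well above background on no array, and igf1ra, which was on 1 array. Over all 5952 RefSeq-named genes, 3241 were higher and 2711 lower, with a median of 0.07. Of these genes, 3.21% were called higher and 3.01% lower. The count of 8 depended on the scaling, because the small differences of igf1 and igf1rb changed sign. With quantile normalization both were lower in exercised fish, at -0.23 and -0.20. Under the 5 other scalings igf1rb was higher in 1 and igf1 in 4. igf2a, igf1ra, igfbp1a, igfbp2a, igfbp3 and igfbp7 were higher in exercised fish under all 5 other scalings, and of these igfbp1a was higher by as little as 0.03.

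**Figure D5:**
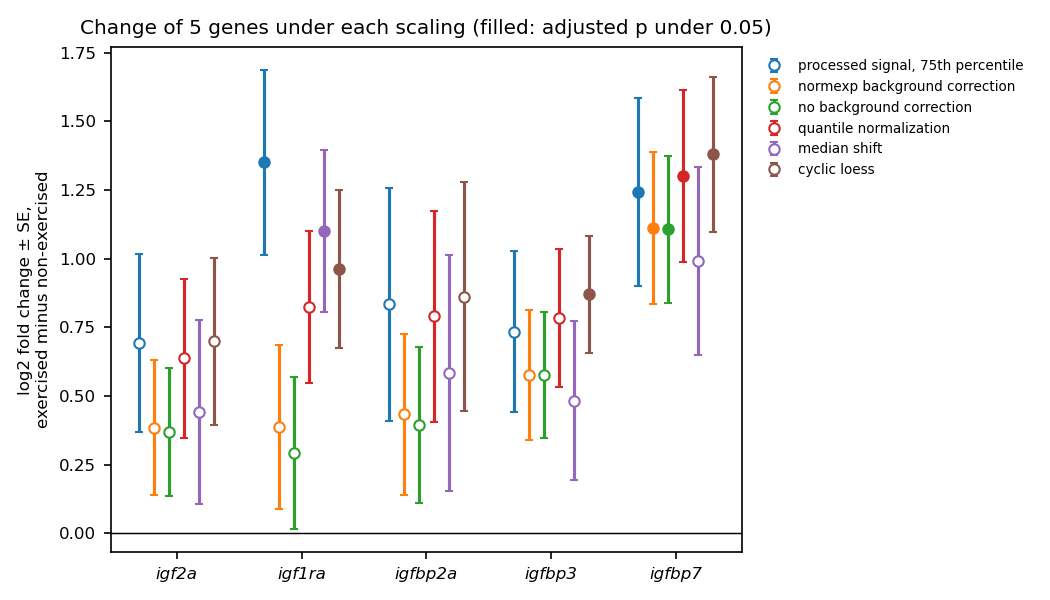
Difference between exercised and non-exercised fish (log2, ± SE) of the 5 genes with the largest differences, under the main scaling and 5 others, filled where the adjusted p was under 0.05. igfbp7 stays between 0.99 and 1.38, whereas igf1ra falls to 0.29 with no background correction.

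No gene on the lists of the wider pathway was called by limma, and at an unadjusted p under 0.05 limma gave genes below the receptors alone. Of 17 other genes of the IGF and insulin family, igf2bp3, an RNA-binding protein of IGF2 messages, was the one with a RefSeq-named probe, at a difference of -0.30 and an adjusted p of 0.770. Of the 9 proteases of the binding proteins and their inhibitors, 2 had a probe and 0 were called. htra1a, a protease, differed by 0.07 (adjusted p = 0.876), and stc1l, a stanniocalcin, was not detected. Of 6 growth hormone axis genes with a probe, 2 were higher and 4 lower, with a median of -0.45, and 0 were called. The lower ones included socs3a and socs3b, which restrain cytokine receptor signalling, at -0.93 and -0.69 (adjusted p = 0.444 and 0.345).

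Of 30 genes below the IGF and insulin receptors with a probe, 14 were higher and 16 lower in exercised fish, with a median of -0.03. With limma 0 were called, and 2 higher and 3 lower genes had an unadjusted p under 0.05, as did 10.5% of all RefSeq-named genes in the higher and 12.5% in the lower direction. The smallest adjusted p was that of eif4ebp1, a repressor of translation that mTOR switches off, at a difference of -0.87 ± 0.28 (SE) and an adjusted p of 0.0727. The related genes eif4ebp2, eif4ebp3 and eif4ebp3l went the other way, at 0.26, 0.72 and 0.13 (adjusted p = 0.618, 0.390 and 0.817). eif4eb, a cap-binding factor, differed by -0.92 (adjusted p = 0.0963). foxo3b, a transcription factor that Akt holds out of the nucleus, differed by 0.91 (adjusted p = 0.128), and the receptor adaptor irs2a by 0.94 (adjusted p = 0.212). ptpn1 differed by -0.49 ± 0.22 (SE), with an adjusted p of 0.232. The genes named in this paragraph, and socs3a and socs3b, were picked after their values were seen.

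The genes whose levels followed igfbp3 and igfbp7 most closely were found among 1621 RefSeq-named genes detected in every fish, by Pearson correlation over the 16 fish after the mean of each slide was taken off. For igfbp3 they were meis1a (r = 0.96), rassf8b (0.93) and ldhd (0.92). For igfbp7 they were zgc:56235 (0.90), meox1 (0.86) and fbxw4 (0.85). None of these 6 was called between the groups, with adjusted p-values of 0.0696 to 0.829. For igf2b, added after its values were seen and taken among 2256 genes detected on at least 15 arrays, they were anxa5b, sh3bgrl and ifi30a, each with r = 0.90. The fish of a slide share their hybridisation and scan, and all correlations are descriptions over the same 16 arrays.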

How the data were processed

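Spot intensity values came from the scanner output deposited by the authors, who quantified the arrays in Agilent Feature Extraction 10.7.3.1. It gives the median and local background of each spot, a background-subtracted processed signal and quality flags. The file headers name a zebrafish genome build, and no coordinates or sequences were used here. The deposited table of differentially expressed probes holds the authors' fold changes, t-test p-values, corrected p-values and 16 columns of log2 values per fish, and none of these were used.

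From each log2 processed signal its array's 75th percentile over non-control probes was subtracted. Spots flagged as outliers (49 to 892 per array) were left out and none were saturated. Precision is limited by the number of arrays, 8 per group. The 43803 non-control probes were fitted with lmFit and eBayes of limma 3.58.1 in R 4.3.3, with Benjamini-Hochberg adjustment. RefSeq accessions gave 9104 probes a symbol, through a RefSeq gene table. The paralogue differences were tested by exact permutation, with a smallest possible p of 0.0001554. The fit was tested on simulated arrays that were drawn independently and without slide effects, so that this test cannot show how slides affect the calls.

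The members and gene lists were chosen with earlier results of these data known. All members were named, and of the lists the called genes, with the exceptions given in the text. The 3 genes most like each member detected on all 16 arrays were also named. Alternatives covered background correction, normalization, filters, outlier spots, the test, array weights, slide, replicate number and each fish left out. Background corrections with slide 4 left out were added after seeing the data.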

Additional observations from a re-analysis of the deposited data

Results flagged for a closer look

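Of 24 checks for a fish far from the others of its group, made on the 12 probes in both groups, 1 stood out, and chance alone marks about 1 group in 20. The brightest probe of igfbp2a was at -3.91 in non-exercised fish 6, and the next lowest non-exercised fish was at -1.58. The gap was 0.687 of the range of the group, above the critical value of 0.526 for 8 samples. The probe was not well above background on that array. Non-exercised fish 6 was also the lowest fish of its group for igf1ra, igfbp3 and igfbp7, and its array had a share of 48.5% of probes well above background, the highest of the non-exercised fish.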

How the results depend on the processing

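Probes called higher among the 12 numbered 2 with the settings of the report. They numbered 1 with no background correction, normexp, quantile normalization, a median shift, either filter on dim probes, or slide 1 or 4 left out, and 0 with slide as a random block, with slide 2 left out, and with slide 4 left out of either background alternative (added after seeing the data). They numbered 0 to 3 with 1 fish left out. Probes called lower numbered 0 throughout. Over all probes, 2005 were called higher and 785 lower, against 1408 and 1426 with a median shift, 1778 and 1554 with quantile normalization, 2674 and 1549 with cyclic loess, 2780 and 2165 with array weights, 710 and 688 with no background correction, 493 and 281 with normexp, and 81 and 0 with slide as a random block. The filter of at least 8 arrays gave 1087 and 1549, and that of all 16 arrays gave 612 and 641. With 1 fish left out, 1354 to 2883 were higher and 287 to 1196 lower. Without slides 1, 2, 3 and 4 in turn, 844, 782, 14528 and 1315 were called higher, and 85, 534, 1095 and 613 lower. The methods' t-test called the same number of member probes, 2, both at its own unadjusted threshold (2883 and 1820 over all probes) and after Benjamini-Hochberg adjustment (1976 and 1072). The cause was not tested for any of the changes that follow.

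With no background correction, log2 differences were 0.29 for igf1ra, which lost its call, -0.011 for igf1rb and -0.40 for the second igf1 probe. With normexp they were 0.39 for igf1ra (call lost), -0.21 for igf1rb and -0.23 for the second igf1 probe. Quantile normalization gave 0.83 for igf1ra (call lost), -0.23 for igf1 and -0.20 for igf1rb. A median shift gave 0.99 for igfbp7 (call lost) and -0.14 for igf1rb. Cyclic loess gave 0.87 for igfbp3, which gained a call, and 0.093 for the second igf2b probe. Array weights gave 0.30 and 0.34 for the igf2b probes, -0.031 for the second igf1 probe and -0.033 for the second igfbp2a probe. Slide as a random block left 1.35 for igf1ra and 1.24 for igfbp7, both without a call.

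Without slide 1, igf1ra was 1.42 (call lost) and igfbp1a -0.074. Without slide 2, igf1ra was 1.28 and igfbp7 0.73 (calls lost), the igf2b probes 0.56 and 0.65, and igf1rb -0.43. Without slide 3, igfbp7 was 1.04 (call lost), the igf2b probes 0.10 and 0.34, igf1rb -0.63, and the second probes of igf1 and igfbp2a 1.31 and 1.28, both gaining a call while not detected on any array. Without slide 4, igfbp7 was 1.45 (call lost), igfbp1a -0.26, and the second probes of igf1 and igfbp2a -0.54 and -0.47. With slide 4 left out of normexp, igfbp7 was 1.37 and igf1ra 0.26 (calls lost), igf1 -0.20 and its second probe -0.59, igfbp1a -0.38 and the second igfbp2a probe -0.24. With slide 4 left out of no background correction, igfbp7 was 1.32 and igf1ra 0.32 (calls lost), igf1 -0.14 and its second probe -0.40, and igfbp1a -0.27.

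With 1 fish left out, igfbp7 ran from 1.08 to 1.45 and was called in 7 of 16 fits, and igf1ra ran from 1.17 to 1.499 and was called in 15. igf2a ran from 0.53 to 0.92 and was called in 1, without non-exercised fish 8. The igf2b probes ran from -0.28 to 0.055 and from -0.17 to 0.18, igf1rb from -0.095 to 0.31 and igfbp1a from -0.0081 to 0.52, none called. The excess of igf1ra over igf1rb ran from 1.05 to 1.41. It was 0.30 with no background correction and 0.60 with normexp. That of igf2a over igf2b ran from 0.55 to 1.04.

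The replicate numbers of the labels were not taken to pair the fish: correlations of same-numbered fish ran from 0.029 to 0.415, 5 of 8 were above 0.1, and 3 of 8 pairs correlated best with their own number. With the number as a block, 2256 probes were called higher and 991 lower, igfbp7 (1.24) had an adjusted p of 0.0179 and igf1ra (1.35) of 0.00973, and the block changed no call among the 12 probes. Dim signal limits igf1, igf1ra and the second igfbp2a probe. The igf1ra probe was well above background on 1 array, and the igf1 probes and the second igfbp2a probe on none.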
